A study of Mus musculus with 12 samples.

Results

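The Cyp1 family of cytochrome P450 genes (Cyp1a1, Cyp1a2 and Cyp1b1), the Ah receptor Ahr, its partner Arnt, its repressor Ahrr and the receptor's feedback target Tiparp were followed in male mouse livers. These 7 genes, of 27975 gene names on the array, were found by the symbol or the transcript printed for each probe, and they have 12 of the 41174 probes. Of these probes 9 were bright enough to test, that is, the scanner software marked them as well above background on every array of 1 or more groups, and the other 3 are given as signals without a test. Mice labelled Cyp1b1 null were set against wild-type mice, labelled C57BL6/J, at each of 2 levels of dietary fat. From weaning at 3 weeks of age the males ate food with 10% fat or with 60% fat, and they were killed at 14 weeks. The 12 two-colour Agilent arrays give 3 arrays for each of the 4 combinations of genotype and diet. On every array the liver sample was in Cy3 (green) and pooled liver RNA of wild-type mice on the 10% fat food, shared by all groups, was in Cy5 (red), so no dyes were swapped.

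The tissue label reads liver hepatocytes, and each array's description gives 3 pooled samples without saying whether this means the sample or the reference. The header of the authors' deposited table lists 3 distinct identifiers for each group, without saying whether they name mice or pools. It is thus not settled that the arrays of a group came from separate mice, and the p-values reflect only how far these arrays scatter. The main fit also took the arrays as independent. Deviations from group means had a median correlation of 0.462 between arrays on the same slide, so its intervals and p-values are not free of slide. The labels do not say which part of Cyp1b1 the null allele lacks, which cells lack it, or on which strain the null mice were kept beyond the series title. Cyp1b1 signal was higher on the arrays labelled null, so these are called labelled null throughout, and every genotype direction below rests on the labels as given.

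As background, Ahr is a transcription factor of the bHLH-PAS family that rests in the cytoplasm with heat shock protein chaperones. When it binds a ligand such as a planar aromatic hydrocarbon, it enters the nucleus, pairs with Arnt and binds DNA elements with a GCGTG core. The Cyp1 genes are its classical targets and encode enzymes that oxidise aromatic hydrocarbons, oestrogens and other substrates. Cyp1a2 is the member made constitutively by hepatocytes, Cyp1a1 is nearly silent in liver without a ligand, and Cyp1b1 is mainly expressed outside the hepatocyte. Ahrr competes with Ahr for Arnt, and Tiparp is an ADP-ribosyltransferase that dampens the receptor.

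The probes for the 3 Cyp1 genes are shown because the Cyp1b1 probes gave different results. Why they differed was not tested. The first 30 of the 60 bases of each, as printed in the array files, were:
Cyp1b1 A_51_P255456: actacattaagcagatagatcaccatgtat
Cyp1b1 A_52_P297822: cccctggtggaaaacagactcaggtcaaaa
Cyp1a1 A_51_P279693: gataatttgctagtgtaacaaagaagattc
Cyp1a2 A_52_P595871: cctggagcattttgctacttgtgacatggc
Cyp1a2 A_51_P450140: caagaacagtatccaagacatcacaagtgc
The first Cyp1b1 probe is assigned by the array to the RefSeq mRNA of Cyp1b1, and its 60 bases hold a stop codon in each of the 3 forward frames. The second Cyp1b1 probe is assigned to a testis cDNA clone of Cyp1b1. The Cyp1a1 probe also holds stop codons in all 3 frames, whereas the second Cyp1a2 probe holds none. No pair of these 5 probes shared a run of more than 7 bases. Whether either Cyp1b1 probe lies outside the part the null allele lacks is not known here, and a probe outside it would not check the genotype.

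The 250 bases before the start site were searched for the receptor's core, GCGTG on either strand (written CACGC on the other strand). RefSeq promoters of assembly GRCm38.p6 were found for 6 of the 7 genes, all but Ahr, and 5 of the 6 held the core. Of all 32851 promoters of that length, 28.2% held it. The longer form TNGCGTG (or CACGCNA), which contains the core, was in 4.1% of all promoters and, among the members, in Ahrr alone. The promoters of Cyp1b1 and Cyp1a2 are printed because these 2 genes carried the largest genotype differences among the members, with the core in capitals.
Cyp1b1, chr17:79715062-79715311, minus strand: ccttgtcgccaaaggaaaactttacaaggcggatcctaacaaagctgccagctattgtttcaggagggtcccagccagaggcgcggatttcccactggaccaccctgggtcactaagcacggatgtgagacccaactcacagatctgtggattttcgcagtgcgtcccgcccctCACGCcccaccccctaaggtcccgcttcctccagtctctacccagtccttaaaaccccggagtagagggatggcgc
Cyp1a2, chr9:57683656-57683905, minus strand: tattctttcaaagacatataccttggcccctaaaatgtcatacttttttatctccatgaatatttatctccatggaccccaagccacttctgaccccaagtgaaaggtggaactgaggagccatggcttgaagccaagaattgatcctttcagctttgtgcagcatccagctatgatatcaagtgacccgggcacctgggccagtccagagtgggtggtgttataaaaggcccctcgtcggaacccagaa
Cyp1b1 had 1 core, at position -76 from the start site, and Cyp1a2 had none in this window. Cyp1a1, the neighbour of Cyp1a2 on chromosome 9 with 0 genes between them in GRCm38.p6, had 1 core at position -54. Arnt had 1 at position -29, Tiparp 1 at position -170 and Ahrr 3. A match of letters is no binding site, and binding was not measured.

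Cyp1b1 was the member that differed most between the arrays labelled null and the wild-type arrays, and in the opposite direction to its label. Values are log2 ratios of sample over reference, after background correction and within-array normalisation. With probe A_51_P255456 the wild-type low-fat arrays were at 0.15, -0.85 and -1.11, a mean of -0.60 ± 0.67 (SD, n = 3). The wild-type high-fat arrays were at -0.69, -0.13 and -0.88, a mean of -0.57 ± 0.39 (SD, n = 3). All 6 arrays labelled null stood above all 6 wild-type arrays. The labelled null low-fat arrays were at 1.68, 1.58 and 1.59, a mean of 1.62 ± 0.06 (SD, n = 3). The labelled null high-fat arrays were at 0.65, 1.68 and 1.23, a mean of 1.19 ± 0.52 (SD, n = 3).

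**Figure D1:**
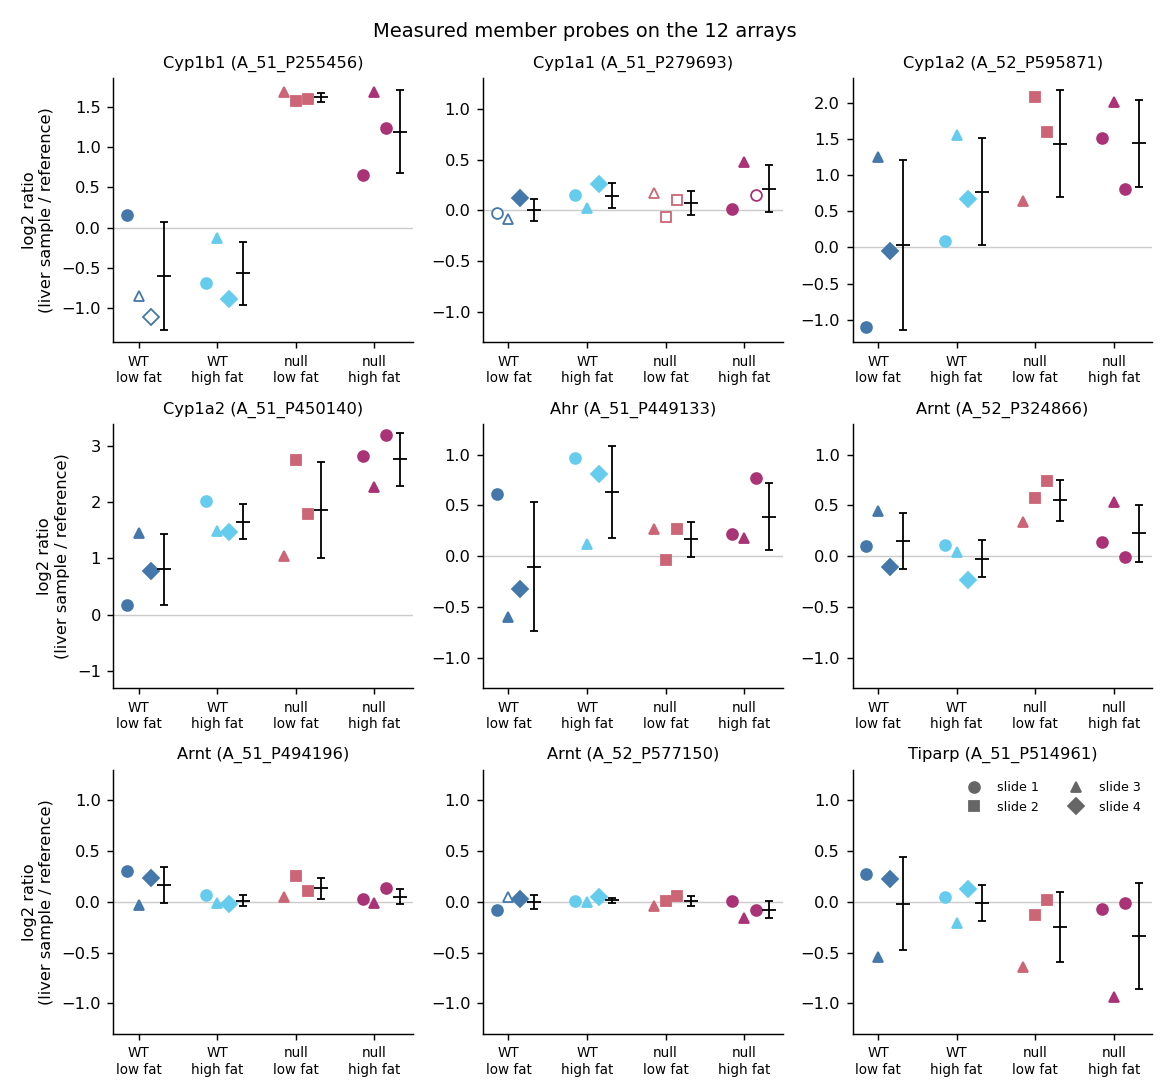
Log2 ratio of liver sample over pooled reference for the 9 measured probes of the 7 genes on each of the 12 arrays, with shapes for the slide and open points where the sample was not well above background. Bars give the mean and SD of 3 arrays. The 6 Cyp1b1 points labelled null lie above the 6 wild-type points, and Cyp1a1 and the Arnt probes A_51_P494196 and A_52_P577150 lie nearest 0.

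At low fat the Cyp1b1 difference, labelled null minus wild-type, was 2.22 on the log2 scale (4.66-fold, SE 0.34, 95% interval 1.47 to 2.97), in a limma fit to all 12 arrays. Only 1 of the 3 wild-type low-fat arrays was well above background, and the offset of 50 added in background correction compresses ratios of such dim spots. How far this fold depends on the offset was not tested. With Agilent processed signals, which differ in more than the offset, the difference was 4.37, and with no background correction it was 2.56. In the main limma fit the unadjusted p was 4.13e-05, the ninth smallest of 21490 probes. The Benjamini-Hochberg adjusted p of 0.0936 missed the threshold of 0.05. At high fat the difference was 1.75 (3.37-fold, SE 0.34, unadjusted p = 0.000309, limma adjusted p = 0.277). The arrays did not overlap between the groups at either diet, a pattern that 9.21% of probes tested showed at low fat and 7.06% at high fat, in either direction. In the mean of both diets, a contrast added after the data had been seen, Cyp1b1 was 1.99 higher (3.96-fold, SE 0.24, limma adjusted p = 0.00689) and passed. The call was lost with slide as a block (1.79, limma adjusted p = 0.122), median centring (adjusted p = 1), scale between arrays (adjusted p = 0.917) and no background correction (adjusted p = 0.348). In that contrast 0.247% of probes passed the adjusted threshold and 7.92% had an unadjusted p below it.

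No member passed the adjusted threshold in any of the 4 comparisons of 3 arrays against 3 or in the interaction of genotype and diet. The share of all probes that passed it was 0.0186% at low fat (4 probes) and 0.00465% at high fat (1 probe). It was also 0.00465% for diet in wild-type mice (1 probe) and 0.00465% for diet in mice labelled null (1 probe). For the interaction it was 0% (0 probes by limma, 184 of them with an unadjusted p below 0.05). Without adjustment the shares below 0.05 were 7.08% at low fat, 2.23% at high fat, 3.68% for diet in wild-type mice, 1.65% for diet in mice labelled null and 0.856% for the interaction. Among the members, 3 probes, of Cyp1b1 and Cyp1a2, were below 0.05 unadjusted at low fat, 2 of the same 3 at high fat, and the Ahr probe for diet in wild-type mice.

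Cyp1b1 did not pass for diet in either genotype. High minus low fat was 0.04 in wild-type mice (95% interval -0.71 to 0.78) and -0.43 in mice labelled null (-1.18 to 0.32, unadjusted p = 0.232 in the limma fit). The genotype difference at high fat minus that at low fat was -0.47 (SE 0.48, 95% interval -1.52 to 0.59, unadjusted p = 0.352 in the limma fit). That interval includes no change and also a loss of more than 1 log2 unit, so these arrays do not set a close bound on a diet effect on the genotype difference. Within the 3 scan days the wild-type diet difference was -0.84, 0.718 and 0.232, with 1 array per diet in each, so its sign was not shared. The diet value in wild-type mice turned negative under 5 of the 13 other settings, among them median centring and scale between arrays.

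The brightness behind these ratios was low in wild-type liver. Before normalisation the sample signal of probe A_51_P255456 was 329, 57.5 and 49.6 in the wild-type low-fat group. In the wild-type high-fat group it was 57.0, 55.2 and 51.5. The local background lay between 36 and 49.5, so 5 of the 6 wild-type arrays were close to it. On the arrays labelled null the sample signal was 343, 651 and 653 at low fat and 812, 375 and 749 at high fat. The sample was well above background on 1 of 3 wild-type low-fat arrays and on 3 of 3 arrays of each other group, and the reference on 12 of 12, at 75.6 to 275. The reference, although it is wild-type liver, was thus above the wild-type samples on 5 of 6 arrays, and reference and sample differ in dye.

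**Figure D2:**
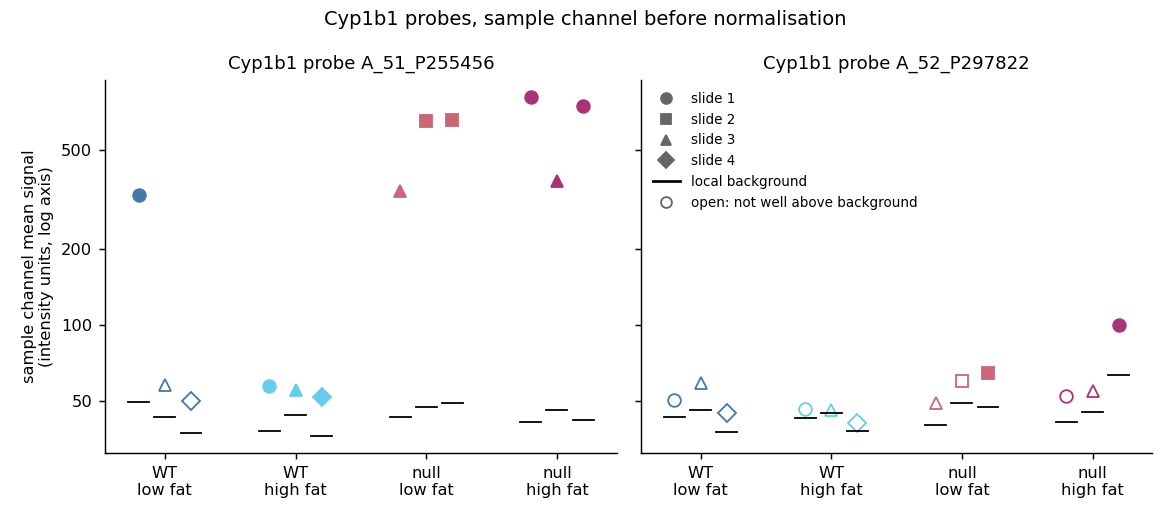
Sample channel brightness of both Cyp1b1 probes before normalisation, in intensity units on a log axis, for each array; black ticks give the local background and open points are not well above it. With probe A_51_P255456 the 6 arrays labelled null lie between 343 and 812 and 5 of 6 wild-type arrays lie below 60, while the second probe stays near background on nearly all arrays.

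Wild-type low-fat array 1, with the signal of 329, also stood apart in markers of some other cell types. In bulk liver, fewer cells of a type and less RNA per cell cannot be told apart. Its summed normalised signal of 8 measured stellate cell and fibroblast markers was 30925, against 6936 to 10990 on the other 11 arrays. Its 6 Kupffer cell and macrophage markers summed to 36890 (7339 to 18803 on the others) and its 5 bile duct markers to 15583 (2372 to 6177 on the others). The lymphocyte markers summed to 771 (415 to 642 on the others). Hepatocyte markers were not set apart on it, at 245756 against 193823 to 319405. Endothelial markers were not either, at 9282 against 6056 to 11734, nor was the measured adipocyte marker, at 75 against 73 to 2970. On the arrays labelled null the stellate sums were 6936 to 10022 at low fat and 7219 to 10516 at high fat, against 8145 to 10990 in wild-type high-fat livers, where Cyp1b1 was lower. The part of these cells in the Cyp1b1 values was not tested. Without that array the low-fat difference was 2.60 with a limma adjusted p of 0.0261, which passes, and the mean of both diets was 2.18 (limma adjusted p = 0.00346).

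Slides and scan days did not hold the groups evenly, so Cyp1b1 was also read within slide 3 and within the first scan day. Slide 2 held only labelled null low-fat arrays 2 and 3. In any fit with slide as a block, the labelled null low-fat group therefore rests on its array 1 alone. Slide 3, scanned alone on the second scan day, held 1 array of each group, and there the difference was 2.53 at low fat and 1.81 at high fat. On the first scan day the difference was 1.43 at low fat, from 2 arrays labelled null against 1 wild-type array, and 1.63 at high fat, also 2 against 1. That low-fat reading compared slide 2 with slide 1, and its wild-type array was low-fat array 1, which stood apart above. The high-fat reading lay within slide 1. The third scan day held only wild-type arrays. The direction was the same in each of these 4 readings. Before any correction, the ratios ran from 0.32 to 3.11 on arrays labelled null and from -1.91 to 1.87 on wild-type arrays, and these overlapped through wild-type low-fat array 1. The uncorrected median ratio over all probes was above 0 on the 6 arrays of the first scan day and below 0 on the other 6.

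In the authors' deposited table, which uses the scanner software's processed signals, the log2 ratio of this Cyp1b1 probe was 4.37 at low fat and 4.58 at high fat, labelled null over wild-type. For wild-type diet the authors' deposited table gives -0.317. The direction for genotype was that of the values above, and the sizes were more than 2 log2 units larger.

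The second Cyp1b1 probe, A_52_P297822, gave nearly no signal. It was at 40.6 to 58.8 on the wild-type arrays, 48.9 to 64.4 in the labelled null low-fat group and 52.3, 54.5 and 99.97 at high fat. Only 2 arrays were well above background, labelled null low-fat array 3 and labelled null high-fat array 3, and on the latter the local background was itself the highest, at 63. Its log2 ratios were -0.07 to 0.06 on the wild-type arrays and -0.01 to 0.28 on the arrays labelled null. The genotypes overlapped at high fat. At low fat the labelled null arrays, at 0.28, -0.01 and 0.005, lay above the wild-type arrays, at -0.07, -0.06 and -0.03. Of tested probes 9.21% showed such a pattern at low fat in either direction, and these signals were near background. The authors' deposited table gives 2.28 and 1.80 for this probe at low and high fat, values that rest on signals at background.

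Cyp1a1, the member most sensitive to receptor ligands, stayed at the edge of detection in every group. Its sample signal was 48.9 to 70.9 on the 12 arrays over a background of 34 to 49. It was well above background on 6 of 12 arrays, namely 1 of 3 at low fat and 3 of 3 at high fat in wild-type mice, and 0 of 3 and 2 of 3 in mice labelled null. The log2 ratios were -0.03, -0.09 and 0.12 in wild-type low fat, 0.15, 0.02 and 0.26 in wild-type high fat, 0.17, -0.06 and 0.10 in labelled null low fat, and 0.02, 0.47 and 0.15 in labelled null high fat. The groups overlapped in all 4 comparisons. The genotype differences were 0.07 at low fat and 0.07 at high fat (SE 0.15, 95% interval at low fat -0.26 to 0.40), and each diet difference was 0.14 (SE 0.15). Signals this near background compress a log ratio, so a larger change of a dim transcript could not be seen. In the authors' deposited table Cyp1a1 is at 0.447 at low fat, -0.489 at high fat and 1.96 for wild-type diet, from the same dim spots.

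Cyp1a2, the abundant hepatic member, was bright on every array and the means of its 2 probes were higher in both groups labelled null, without passing the adjusted threshold. Probe A_51_P450140 was at 0.18, 1.45 and 0.78 in wild-type low fat and at 2.01, 1.47 and 1.46 in wild-type high fat. It was at 1.04, 2.75 and 1.79 in labelled null low fat and at 2.81, 2.27 and 3.19 in labelled null high fat. The high-fat groups did not overlap between genotypes, nor did the diets in wild-type mice, and the low-fat genotypes overlapped. Arrays that do not overlap between the diets were found for 6.88% of probes in wild-type mice and for 4.63% in mice labelled null.

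Its genotype difference was 1.06 at low fat (SE 0.43, 95% interval 0.11 to 2.01, limma adjusted p = 0.661). At high fat it was 1.10 (95% interval 0.16 to 2.05, unadjusted p = 0.026, limma adjusted p = 1). The diet differences were 0.85 in wild-type mice (95% interval -0.10 to 1.79) and 0.89 in mice labelled null (-0.05 to 1.84). With scale between arrays they were 3.28 and 4.92, and with slide as a block the second was 1.66. In the mean of both diets the genotype difference was 1.08 (SE 0.30, unadjusted p = 0.00444, limma adjusted p = 0.289).

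Probe A_52_P595871 of Cyp1a2 was more scattered. It was at -1.10, 1.24 and -0.05 in wild-type low fat (mean 0.03 ± 1.17, SD, n = 3) and at 0.08, 1.56 and 0.67 in wild-type high fat (0.77 ± 0.74, SD, n = 3). On labelled null arrays it was at 0.64, 2.08 and 1.59 at low fat and at 1.50, 2.01 and 0.81 at high fat. The groups overlapped in all 4 comparisons. The genotype difference was 1.40 at low fat (SE 0.59, 95% interval 0.10 to 2.71, limma adjusted p = 0.675) and 0.67 at high fat (-0.63 to 1.97). The diet differences were 0.74 in wild-type mice and 0.01 in mice labelled null, against 3.24 and 2.32 with scale between arrays, and the second was 1.79 with slide as a block. Over the 12 arrays the 2 probes had a Pearson r of 0.665 and a Spearman rho of 0.629, a description over arrays that share slides.

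Slide moved with the Cyp1a2 genotype difference at low fat. On slide 3 alone, with 1 array per group, the low-fat difference was -0.607 with A_52_P595871 and -0.403 with A_51_P450140. On the first scan day it was 2.94 and 2.09, against wild-type low-fat array 1. At high fat the values were 0.45 and 0.791 on slide 3 and 1.07 and 0.989 on the first scan day. With slide as a block in the fit, the low-fat difference of A_52_P595871 was -0.182 and that of A_51_P450140 was 0.226. In that fit the labelled null low-fat group rests on its array on slide 3 alone, since slide 2 held no other group. The low-fat direction of Cyp1a2 thus differed between slide 3 and the first scan day, and the high-fat direction was the same in both.

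**Figure D3:**
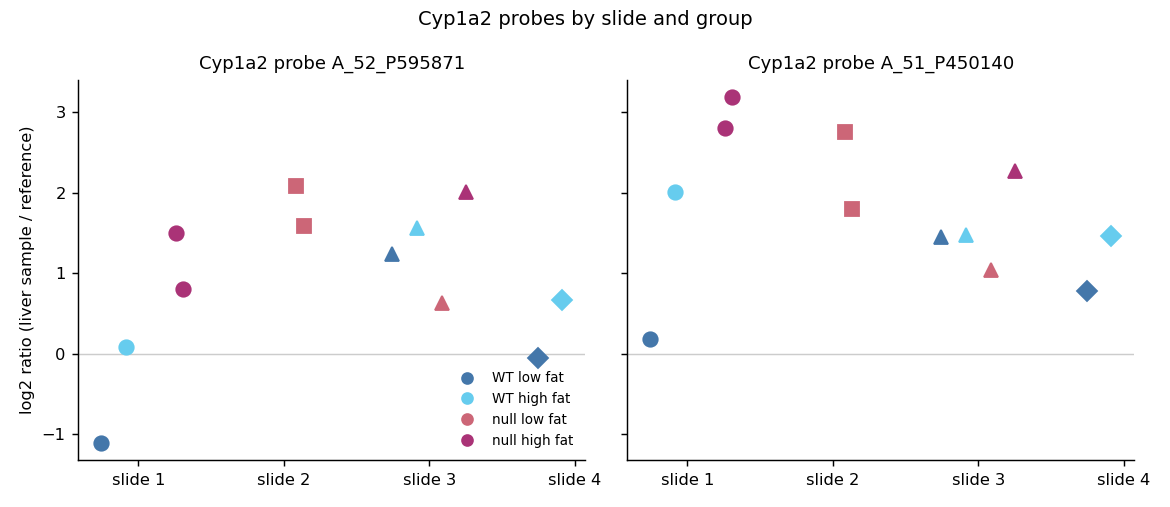
Log2 ratio of both Cyp1a2 probes on each array, placed by slide and coloured by group. On slide 3 the labelled null low-fat array, at 0.64 and 1.04, lies below the wild-type low-fat array, at 1.24 and 1.45, while on slide 1 wild-type low-fat array 1 is the lowest point of both panels.

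Ahr, the receptor, was well expressed and its probe was spotted 10 times on each array. The wild-type low-fat arrays were at 0.61, -0.60 and -0.33, and the wild-type high-fat arrays at 0.97, 0.12 and 0.81. The labelled null arrays were at 0.27, -0.04 and 0.27 at low fat and at 0.22, 0.17 and 0.77 at high fat. All groups overlapped. The SD between the 10 spots of an array was 0.0769 to 0.3, against an SD of 0.432 between the arrays, so repeat spots scattered less than arrays did. The genotype differences were 0.27 at low fat and -0.25 at high fat. The diet difference was 0.74 in wild-type mice (SE 0.32, 95% interval 0.04 to 1.44, unadjusted p = 0.0405, limma adjusted p = 1) and 0.22 in mice labelled null. Within the 3 scan days the wild-type diet difference of Ahr was 0.359, 0.714 and 1.14.

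Arnt, the shared partner of Ahr and of the hypoxia factors, has 4 probes, 3 of them measured. Probe A_52_P324866 was at 0.10, 0.44 and -0.10 in wild-type low fat and at 0.34, 0.57 and 0.74 in labelled null low fat. At high fat it was at 0.11, 0.04 and -0.23 in wild-type mice and at 0.14, 0.53 and -0.01 in mice labelled null. Its genotype differences were 0.41 at low fat (SE 0.20, unadjusted p = 0.0632) and 0.25 at high fat. In the mean of both diets it was 0.33 (unadjusted p = 0.038, limma adjusted p = 0.592). The other 2 measured probes were nearer 0. A_51_P494196 differed by -0.03 at low fat and 0.04 at high fat, and A_52_P577150 by 0.01 and -0.09. The 3 Arnt probes had Pearson r between -0.0821 and -0.0217 with each other over the 12 arrays, so they did not rank the arrays alike. Probe A_52_P84015, from a neonate thymus cDNA clone of Arnt, was well above background on 0 of 12 arrays.

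Of the genes that restrain the receptor, Ahrr was not well above background on any array. Its sample signal was 43.8 to 78.5 over a background of 35 to 50.5, and no fold is given. The authors' deposited table lists it at -0.743, 0.151 and 0.181 in the low-fat, high-fat and wild-type diet comparisons, from signals at background. Tiparp was at 0.27, -0.54 and 0.22 in wild-type low fat and at 0.05, -0.21 and 0.13 in wild-type high fat. In the groups labelled null it was at -0.64, -0.13 and 0.02 at low fat and at -0.07, -0.94 and -0.01 at high fat. Its lowest array in every group was the one on slide 3, and all groups overlapped. Its genotype differences were -0.23 at low fat and -0.33 at high fat and its diet differences 0.00 and -0.09, each with an SE of 0.30.

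**Figure D4:**
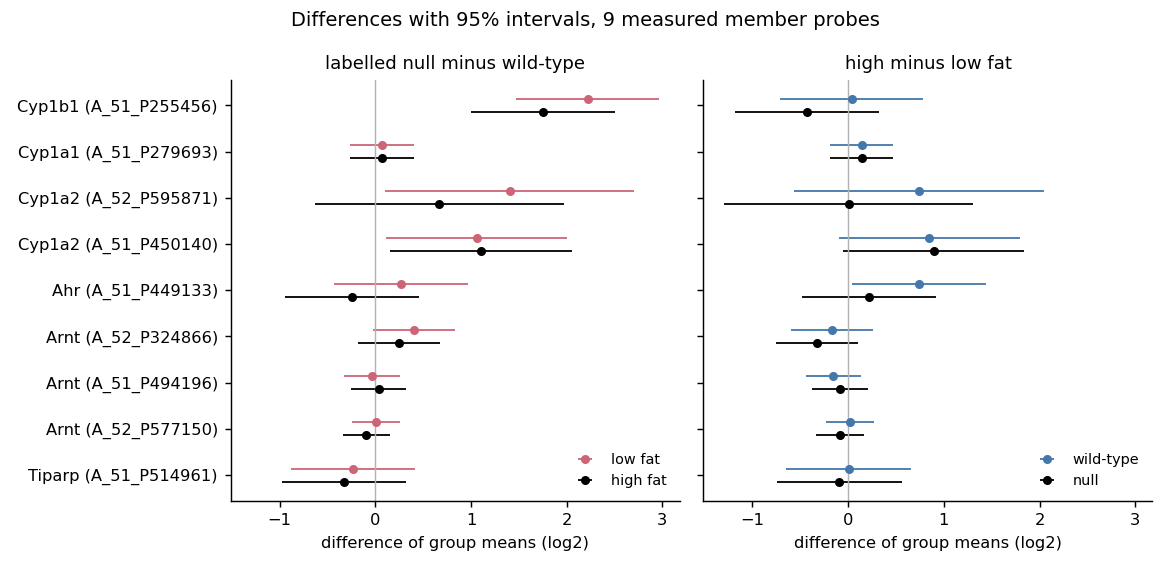
Differences of group means on the log2 scale with 95% intervals from the limma fit for the 9 measured probes: labelled null minus wild-type at each diet, and high minus low fat in each genotype. Only the Cyp1b1 intervals lie wholly above 1 for genotype, the Cyp1a2 intervals are the widest, and for diet the interval of Ahr in wild-type mice, 0.04 to 1.44, is the one that does not reach 0.

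The wider pathway was read from 4 lists, chosen with earlier results of these data known, so their counts are descriptions and no test. Of the 12 chaperones and co-regulators of the receptor (such as the chaperone Hsp90ab1, which helps hold it in the cytoplasm, and Ncoa1, a coactivator), 12 were measured and none passed. Their median genotype difference was 0.139 at low fat and 0.0826 at high fat, with 10 of 12 above 0 in each. Over all 14911 genes the medians were -0.00551 and 0.00259, with 7326 and 7551 above 0. The acetyltransferase Crebbp was at 0.23 and 0.22, the co-chaperone Ptges3 at 0.27 and 0.06 and the coactivator Ncoa3 at 0.19 and 0.25, none past the threshold. Of 11 other bHLH-PAS genes 7 were measured, none passed, and their medians were 0.16 and 0.0294. The clock gene Per2 was at 0.49 and 0.38, its relative Per1 at -0.21 and -0.42, and the hypoxia factor Epas1 at 0.29 and -0.42.

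Of the 20 other genes listed as receptor targets 17 were measured, and most lay below 0 on arrays labelled null while Cyp1b1 and Cyp1a2 lay above. At low fat 14 of the 17 were below 0 and 3 above, with a median of -0.67, and at high fat 12 were below and 5 above, with a median of -0.322. Over all 14911 genes 7326 were above 0 at low fat and 7551 at high fat. None passed in a comparison of 3 arrays against 3. At low fat 8 were lower and 1 higher with an unadjusted limma p below 0.05, and at high fat 4 were lower and 2 higher. Of all probes, 7.08% and 2.23% were below it in either direction. The list was chosen with earlier results of these data known, so its counts set beside these shares do not test it. Selenbp1, a selenium-binding protein with methanethiol oxidase activity, was the listed gene with the smallest p in both. Its arrays were at 0.96, 0.10 and 0.73 in wild-type low fat and at 1.82, 1.87 and 1.59 in labelled null low fat. At high fat they were at 1.08, 0.70 and 0.89 in wild-type mice and at 2.32, 2.07 and 2.29 in mice labelled null, so genotypes did not overlap at either diet.

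The Selenbp1 difference was 1.17 at low fat (SE 0.21, limma adjusted p = 0.118) and 1.34 at high fat (limma adjusted p = 0.112). In the mean of both diets it was 1.25 higher (SE 0.15, limma adjusted p = 0.00689), the only listed target that passed there. Gsta2, a glutathione transferase, lay in the opposite direction, at 0.50, -1.96 and -0.30 in wild-type low fat against -2.63, -3.26 and -2.83 in labelled null low fat. Its difference was -2.32 at low fat (SE 0.48, unadjusted p = 0.000551, limma adjusted p = 0.214) and -1.03 at high fat. Igfbp1, a binding protein for insulin-like growth factors, was at -0.94 at low fat and -2.28 at high fat (SE 0.87, limma adjusted p = 1). The next 3 are named after their values were seen. Cd36, a fatty acid uptake receptor, was at -2.55 and -1.57, and the hormone Fgf21 at -1.65 and -1.21. Nqo1, a quinone reductase often used as a marker of receptor activity, was at -0.99 and -0.36. None of the 3 passed the threshold. For Cd36 and Nqo1 the genotypes overlapped at high fat, and for Fgf21 at low fat. All 3 come from the lower side of the list, while Socs2 lay highest at high fat.

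**Figure D5:**
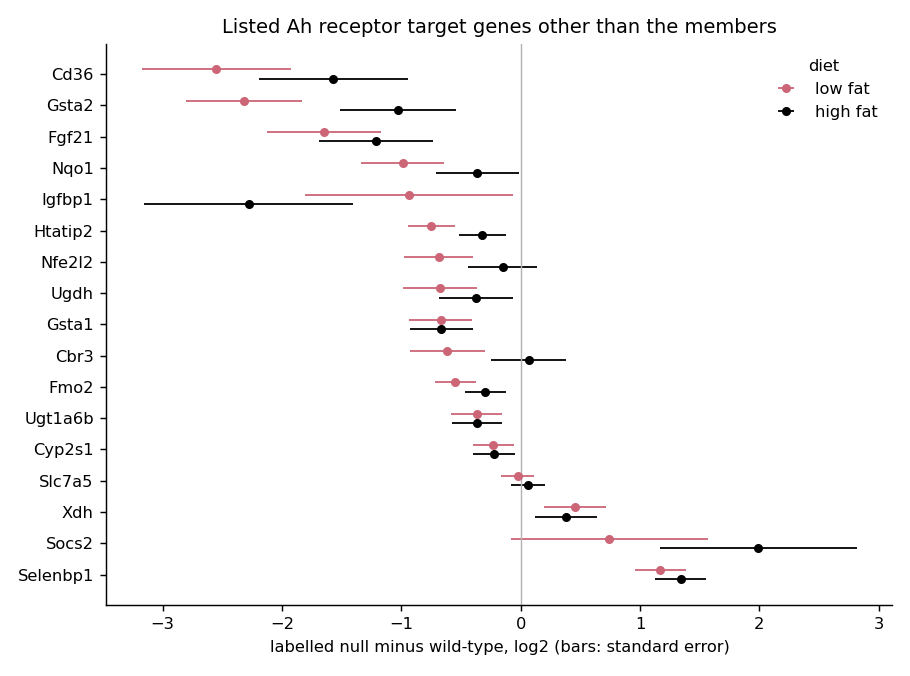
Labelled null minus wild-type difference on the log2 scale, with standard errors from the limma fit, for the 17 measured listed receptor targets other than the 7 genes, at low and high fat. At low fat 14 points lie below 0 and Selenbp1 lies highest at 1.17. At high fat 12 lie below 0 and Socs2 lies highest at 1.99. The list was chosen with earlier results of these data known.

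At low fat, the targets' genotype count depended on the arrays and their scaling in size more than in direction. Under each other scaling and background setting at low fat, 12 to 14 of the 17 stayed below 0, and with arrays centred on their median the list median was -0.146 beside an all-gene median of 0.328. Without wild-type low-fat array 1, 13 were below 0 with a median of -0.426. Within the first scan day 14 were below 0 at low fat (median -1.14), and within the second, on slide 3, 11 were (median -0.107). For diet, 12 of 17 were below 0 in wild-type mice (median -0.192) and 13 of 17 above 0 in mice labelled null (median 0.221). These diet counts turned with the arrays used. On the second scan day 12 of 17 were above 0 in wild-type mice, and without wild-type low-fat array 1 the split was 8 above and 9 below. In mice labelled null, 6 were above 0 with slide as a block, 7 with scale between arrays and 8 with Agilent processed signals. Of 7 electron donors and haem supply genes, which P450 enzymes need to work, none passed, and their genotype medians were -0.0814 and -0.0867. Por, the P450 reductase, was at -0.92 at low fat (unadjusted p = 0.0287 with limma) and -0.58 at high fat, Hmox1, the haem oxygenase, at -0.61 and -0.19, and Alas1, the first enzyme of haem synthesis, at -0.61 and 0.60.

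Genes whose log2 ratios followed the Cyp1 members over the 12 arrays were chosen by Pearson r, among 540 or 541 genes whose group means spanned at least 1 log2 unit. These are descriptions over arrays that share slides and a reference, and an r over all 12 arrays takes in the differences between groups. For Cyp1b1 they were Egfr, the EGF receptor (r = 0.91, rho = 0.846), C8b, a complement component (r = 0.91, rho = 0.699), and Moxd1, a monooxygenase-like protein (r = 0.909, rho = 0.832). All 3 genes had a probe past the threshold for genotype in the mean of both diets, as Cyp1b1 did, so their r partly restates that split. Cyp1b1 had an r of 0.49 and 0.447 with the 2 Cyp1a2 probes and 0.218 with Cyp1a1. For Cyp1a2 they were Hdhd3 (r = 0.892, rho = 0.825), Hsd3b4, a steroid dehydrogenase family member (r = 0.849, rho = 0.643), and Mfsd4b1 (r = 0.847, rho = 0.762). For Cyp1a1, near background, they were Capn8, a calpain (r = 0.771, rho = 0.476), Gpcpd1 (r = 0.74, rho = 0.818) and Ces4a, a carboxylesterase (r = 0.72, rho = 0.503).

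Over the series, between 18375 and 23439 probes of an array had a sample signal well above background, and 17286 to 25998 a reference signal. With 3 arrays per group, their number limits the precision. The 4 probes past the threshold at low fat were those of Cyp2a5, lower, and of Serpina3k, C8b and Moxd1, higher in livers labelled null. C8b alone passed at high fat. For the label liver hepatocytes, 7 of 8 hepatocyte markers were measured, and so were 6 of 6 Kupffer, 8 of 8 stellate, 6 of 6 endothelial and 5 of 5 bile duct markers, so markers of other liver cells were detected beside those of hepatocytes. Of lymphocyte markers 3 of 6 were measured, and of adipocyte markers 1 of 4. That adipocyte marker, Cfd, had a normalised signal of 281 to 2970 in wild-type high-fat livers and 73 to 114 in labelled null high-fat livers, without overlap. Its difference there was -2.91 (SE 1.17, unadjusted p = 0.0308, limma adjusted p = 1), and at low fat it was -0.13. Cd36, which adipocytes also express, was at -1.57 in the same high-fat comparison, and the part of adipocyte RNA in the list values was not tested.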

How the data were processed

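The members and lists were chosen with earlier results of these data known. The deposited intensity values give each spot's mean brightness and median local background in both colours, from Agilent Feature Extraction (spot analysis 9.1.3.1) with a protocol edited for local background, per the file headers. The deposited log10 ratios (Cy5 over Cy3) come from the software's processed intensities, per the file headers. The authors' deposited table holds log2 ratios, for which the submitters' processing notes name limma without a version. It equals the differences of group means of those log10 ratios, turned to log2 of Cy3 over Cy5, on all 43379 spots within 1e-06. Labelling used 1 of 2 Genisphere kits, above or below 20 ug of RNA, per the labels' protocols, and the kit of each sample is not stated.

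From the spot intensities, background was corrected by normexp (offset 50), and loess within each array normalised the log2 of Cy3 over Cy5, with limma 3.58.1 in R 4.3.3. Spots marked as not uniform (120) were left out, and repeated spots of 245 probes were averaged. Measured probes had a sample signal well above background on every array of 1 or more groups (21490 of 41174 probes, 14911 genes, a gene taking its brightest probe in lists). Of all probes, 24844 were named by accession, 6045 had a current symbol, 1810 had an older one, and 8475 kept their printed name. Limma fitted 1 mean per group to 12 arrays (degrees of freedom: 8 residual, 3.07 prior), and p-values were adjusted by Benjamini-Hochberg over all measured probes at a threshold of 0.05. On simulated data of 21438 probes for the low-fat comparison, 43.3% of changes of 1 log2 unit, 89.6% of 2 and 100% of 4 were recovered, and 12 of 167 calls were wrong. The simulated noise was normal, independent between arrays and without slide effects. The real arrays share slides, so these shares check the fit and are not rates for these data.

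Named were all member probes, for each Cyp1 gene the 3 most alike genes, and from each list the genes past the threshold or else the 2 with the smallest p per genotype comparison; some genes so named are not reported here. The alternatives were other background corrections, scalings, filters, variance models, blocks and each array left out. Replicate numbers did not pair the arrays across all 4 groups. Over 18 pairs with the same number the correlation of deviations from group means was -0.578 to 0.556 (median -0.0259). Of these, 6 were above 0.1. Over 12 pairs on the same slide the median correlation was 0.462. Wild-type arrays with the same number did share a slide, so the wild-type diet comparison was paired by slide, which the main fit did not use.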

Additional observations from a re-analysis of the deposited data

Results flagged for a closer look

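The second Cyp1b1 probe, A_52_P297822, was in none of the tested comparisons because it was too dim, yet it was well above background on 2 arrays labelled null and on 0 wild-type arrays. Those 2 arrays had sample signals of 64.4 and 99.97. The array with the higher signal also had the highest local background of that probe, at 63, and the part of background in the mark was not tested.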

How the results depend on the processing

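Over 39 member results and 959 recomputed values, 915 kept their direction and 44 reversed, 19 of these with 1 array left out and 25 under another setting. Part of the 959 could not change. Leaving out an array of a group outside a comparison, or changing only the probe filter or the variance model, returned the main value. The share that kept its direction is therefore no measure of stability. The Cyp1b1 genotype difference kept its direction under each of 13 other settings, at 1.55 to 4.37 at low fat and 1.57 to 4.58 at high fat. Some of these returned the main 2.22 and 1.75 by construction. They were no filter on dim probes, 1 probe per gene, the robust variance, the replicate block, the 2 groups alone and a quantile scaling of average brightness. The Cyp1b1 difference passed at low fat with the sample channel alone (2.25, limma adjusted p = 0.0173). At high fat it passed with the sample channel alone (2.42, adjusted p = 0.00653) and with Agilent processed signals (4.58, adjusted p = 0.0391). With each array left out it was 1.96 to 2.60 at low fat, where 1 of 12 passed, and 1.51 to 2.02 at high fat. The mean of both diets passed under 8 of 12 other settings and with each array left out (1.86 to 2.18). It differed from the main 1.99 in only some of those 8, namely Agilent processed signals, the sample channel alone and scan day as a block. It did not pass with no background correction (2.83, adjusted p = 0.348), median centring (2.28, adjusted p = 1), scale between arrays (2.04, adjusted p = 0.917) or slide as a block (1.79, adjusted p = 0.122).

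Cyp1b1 diet values in wild-type mice turned to -0.549 with no background correction, -0.317 with Agilent processed signals, -0.0214 with median centring, -0.172 with the sample channel alone and -0.304 with scale between arrays, and lay between -0.218 and 0.416 with 1 array left out. Its diet value in mice labelled null was 0.672 with scale between arrays. Cyp1a2 A_52_P595871 turned to -0.182 at low fat with slide as a block, and its diet value in mice labelled null to -0.0632 with median centring and to between -0.393 and 0.328 with 1 array left out. Cyp1a1 at high fat was -0.489 with Agilent processed signals and between -0.0609 and 0.168 with 1 array left out. The Ahr diet value in mice labelled null was -0.376 with slide as a block.

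Tiparp turned to 0.0671 at low fat with median centring and to 0.00163 at high fat with scale between arrays. Its wild-type diet value was -0.152 with no background correction, -0.184 with Agilent processed signals, -0.381 with scale between arrays and between -0.258 and 0.148 with 1 array left out, and its diet value in mice labelled null lay between -0.287 and 0.21. Arnt A_52_P324866 turned to -0.0567 at low fat and to 0.0658 for diet in mice labelled null with slide as a block. Arnt A_51_P494196 at low fat was 0.238 with Agilent processed signals, 0.0766 with median centring and -0.134 to 0.0337 with 1 array left out, at high fat -0.00572 to 0.0672 with 1 array left out, and for diet in mice labelled null 0.0621 with no background correction. Arnt A_52_P577150 at low fat was -0.0184 with slide as a block and -0.0282 to 0.037 with 1 array left out. At high fat it was 0.00893 with no background correction and 0.39 with Agilent processed signals. For wild-type diet it was -0.0469 with no background correction and -0.0224 to 0.0422 with 1 array left out, and for diet in mice labelled null 0.324 with Agilent processed signals.

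Counts of probes past the threshold moved with nearly every setting, given here at low fat, at high fat, for wild-type diet, for diet in mice labelled null and for the mean of both diets, from 4, 1, 1, 1 and 53. They were 0, 0, 0, 0 and 2 with no background correction, 56, 61, 3, 1 and 283 with Agilent processed signals, and 0, 0, 0, 0 and 1 with median centring. They were 48, 44, 2, 1 and 333 with the sample channel alone, 0, 0, 0, 0 and 0 with scale between arrays, and 1, 1, 0, 0 and 26 with no filter on dim probes. They were 3, 2, 1, 1 and 47 with 1 probe per gene, 5, 3, 0, 1 and 40 with a robust variance with a trend, 13, 2, 0, 1 and 103 with scan day as a block, and 1, 2, 0, 0 and 13 with slide as a block. With the 2 groups alone they were 0, 1, 0 and 2, without a mean of both diets. The interaction called 0 under each setting run. With 1 array left out the ranges were 1 to 27 at low fat (27 without wild-type low-fat array 2), 0 to 6, 0 to 1, 0 to 1, and 22 to 136 for the mean of both diets (136 without wild-type low-fat array 1). The causes were not tested. With the replicate block the counts were 1, 1, 0, 1 and 31. Cyp1b1 then had limma adjusted p-values of 0.156 at low fat, 0.455 at high fat and 0.0212 in the mean of both diets. The replicate numbers matched slides in wild-type mice only. Each value above with slide as a block that uses the labelled null low-fat group rests on array 1 of that group alone. Signals near background limit Cyp1a1, Ahrr, the second Cyp1b1 probe and wild-type Cyp1b1.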
